A study of Homo sapiens with 9 samples.

Results

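The guides described here target genes of segmentally duplicated families, in which many near-identical gene copies lie on the same or several chromosomes. They were chosen by gene name: every guide whose target symbol begins with NBPF, GOLGA6, GOLGA8, USP17L, TBC1D3, PPIAL4, SPATA31, NPIP, SPDYE, PRAMEF, ANKRD20A, ANKRD36, FAM90A, POTE, FOXD4 or WASH1. These 16 name patterns gave 572 of the 77441 guides of the library, 4 guides for each of 143 genes. Of these genes, 140 belong to a duplicated family, and TBC1D30, TBC1D31 and TBC1D32 share with TBC1D3 only the letters of their names.

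HEL cells come from a human erythroleukemia and carry a JAK2 mutation, and the kinase is blocked by ruxolitinib (RUX). Cas9-expressing HEL cells, held under puromycin and blasticidin, carried the Brunello knockout library, in which 76441 guides target 19114 genes and 1000 guides target none. Guide DNA was read in 4 libraries after 12 days under 200 nM RUX, in 4 libraries after 12 days under DMSO, the solvent control, and in 1 library at day 0. The cell line was the same in all 9 libraries, the labels do not say whether the 4 libraries of a condition came from separate cultures, and guide DNA holds no expression by which the cell type could be checked.

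In a pooled knockout screen each guide directs Cas9 to its target, and the share of reads of a guide falls when the cells that carry it divide less or die. Cas9 cuts wherever the target sequence stands beside a PAM, a short motif ending in GG, so a guide designed for a repeated gene can cut at many places in the same cell. A cut in DNA starts the damage response, and many simultaneous cuts are known to slow cells even where the gene is not needed, which is why amplified and repeated loci are treated with care in such screens. The question for these families is therefore how their guides behaved beside those of other genes, and whether guides to a given gene behaved alike.

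The deposited table gives guide identifiers without their sequences, so repetition was measured per gene: each 20-base site followed by a PAM in the coding exons of a gene was counted wherever it occurs exactly on chromosomes of the hg38 reference. The most repeated coding site of 7 genes is printed to make the degree of repetition visible, with the PAM in capitals. They are reference sites and are not the guides of the library. In order, these genes are 6 of those that lost guide signal and the gene with the highest mean score.
NBPF20, chr1:145293321-145293343, minus strand: tgaagtcttgcaggactcacTGG
NPIPA2, chr16:14765198-14765220, minus strand: ttgagattatcatccgctgaGGG
GOLGA6L1, chr15:23129847-23129869, minus strand: ggaggagaagatacgggagcAGG
WASH1, chr9:17406-17428, plus strand: tctctgcccccagcatcacaTGG
TBC1D3C, chr17:38063957-38063979, minus strand: tcatgaaggagaagggcaagAGG
SPDYE6, chr7:102353366-102353388, plus strand: ggggctgggatctaccccagGGG
POTEE, chr2:131218461-131218483, plus strand: tcaggagcaagatgggcaagTGG

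The NBPF20 site occurred 212 times, all on chromosome 1, and 64 of these copies lay inside NBPF20 itself. The NPIPA2 site occurred 137 times on chromosome 16 and the GOLGA6L1 site 61 times on chromosome 15. Copies of the WASH1 site were fewer, 11, but lay on 8 chromosomes. The TBC1D3C site had 19 copies, the SPDYE6 site 35, and the POTEE site 27 copies on 6 chromosomes, 26 of them within 12 member genes. Repetition thus took different forms. In NBPF20 many copies lay within the gene, though more lay elsewhere on chromosome 1. In NPIPA2 and TBC1D3C copies lay on the same chromosome, mostly outside the gene. In WASH1 and POTEE they lay on several chromosomes.

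The recovered read totals were 19631338 to 24526993 in the RUX libraries, 21783913 to 26611323 in the DMSO libraries and 21983632 at day 0. The member guides took 0.628% to 0.648% of the reads in RUX, 0.623% to 0.638% in DMSO and 0.707% at day 0, with median day 0 signals of 229 for member guides and 237 for all guides. DMSO replicate 3 stood apart: its non-targeting guides spread with an SD of 0.46 in score, whereas the SD was 0.26 to 0.30 elsewhere at day 12. A score is the natural log of a day 12 signal, scaled to the non-targeting guides and raised by a pseudocount of 5, minus that at day 0, so a score of -0.5 leaves 60.7% of the day 0 level. Gene scores are means over guides with a day 0 signal of at least 30, which kept 561 member guides. The 11 left out, 1.92% of the members against 1.31% of all guides, belonged to 10 genes, and 133 member genes kept all 4 guides.

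Guides to the duplicated families scored lower than those to other genes under both treatments. Under RUX the median gene score of the 143 members was -0.23, against -0.10 over all 19112 genes tested, and 23 members (16.1%) lay below -0.5, against 4.66% of all genes. Under DMSO the members' median was -0.26, against -0.09 over all genes, and 25 members (17.5%) lay below -0.5, against 4.47% of all genes. The difference between members and other genes was not tested, because the genes of a family share sequence and are not replicates. In single libraries the members' median was -0.21, -0.23, -0.22 and -0.23 in RUX, against -0.10, -0.09, -0.10 and -0.10 over all genes. In the DMSO libraries the members' median was -0.26, -0.24, -0.24 and -0.22, against -0.10, -0.09, -0.11 and -0.06 over all genes. The members lay lower in each of the 8 libraries. Without DMSO replicate 3, 19.6% of the members lay below -0.5 in DMSO, against 4.29% of all genes.

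A pair of other gene groups gives the scale. Olfactory receptors, another large family of related genes with known roles in the nose, had median scores of -0.07 in RUX and -0.07 in DMSO, and 6 of 374 (1.60%) and 5 of 374 (1.34%) lay below -0.5. Genes for cytosolic ribosomal proteins, which dividing cells need, had medians of -0.60 in RUX and -0.60 in DMSO, and 47 of 78 lay below -0.5 in each. The median over all members lay between these groups, and single families lay on either side of them.

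At the level of single guides, 132 of 561 member guides (23.5%) scored below -0.5 in RUX, against 11.7% of all guides tested, 8.88% of olfactory receptor guides and 0.808% of non-targeting guides. In DMSO the count was 146 (26.0%), against 12.1% of all guides, 9.29% of olfactory receptor guides and 3.03% of non-targeting guides. Scores below -2, which leave less than 13.5% of the day 0 level, were found for 7 member guides (1.25%) in RUX, against 0.27% of all guides, and for 6 (1.07%) in DMSO, against 0.259%. Scores above 0.5 were about as frequent among members (20 guides, 3.57% in RUX; 15 guides, 2.67% in DMSO) as among all guides (3.34% in RUX and 3.55% in DMSO). The members thus differed from all guides more in the share of low scores than in that of high scores. Their median guide score was also lower, -0.17 in RUX and -0.20 in DMSO, against -0.09 and -0.09 over all guides.

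With limma and Benjamini-Hochberg adjustment over all genes, 7 members fell under RUX at an adjusted p under 0.05, against a background of 1.61% of genes: NBPF20, NPIPA2, GOLGA6L1, SPDYE6, NBPF9, NBPF10 and NPIPB6. Under DMSO 8 members fell, against 1.18% of genes: NBPF20, NPIPA2, NPIPB6, GOLGA6L1, NBPF9, GOLGA6L10, WASH1 and TBC1D3C. No member passed on the high side in either comparison (all genes: 0% in RUX and 0.0105% in DMSO). The 2 comparisons share the day 0 library and are not independent. Scores below -0.5 in both were found for 16 members, against 3.18% of all genes. No gene kept its call under every alternative: with the median over guides in place of the mean, 3 members passed in RUX (NBPF20, NBPF10 and SPDYE6) and 0 in DMSO, and with edgeR on reads summed over guides 2 passed in RUX (SPDYE6 and TBC1D3C) and 1 in DMSO (GOLGA6L10), where 111 and 73 of all genes passed.

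The NBPF genes, the neuroblastoma breakpoint family, encode proteins built from repeated Olduvai domains, and their numbers grew in the human lineage. The 12 members had median scores of -0.37 in RUX and -0.34 in DMSO, 4 of 12 lay below -0.5 in each, and 16 of 48 guides (33.3%) did so in RUX. NBPF20 (chr1:145289900-145425603), whose coding sites had a median of 66 genome copies, was the lowest member of all. Its gene scores were -1.30, -1.23, -1.46 and -1.29 in RUX and -1.39, -1.36, -1.30 and -1.06 in DMSO. The mean of -1.32 ± 0.10 in RUX (SD, n = 4; limma adjusted p = 0.00189) left 26.7% of the day 0 level, and that of -1.28 ± 0.15 in DMSO (limma adjusted p = 0.00331) left 27.8%. The RUX and DMSO values overlapped.

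The loss of NBPF20 was carried by a pair of its guides. Guide sg_75656 had signals of 2.02, 5.56, 1.01 and 2.27 in RUX and 0, 1.93, 0 and 6.39 in DMSO, against 97.8 at day 0. Guide sg_75658 had 1.01, 0.926, 0 and 4.53 in RUX and 0 in all 4 DMSO libraries, against 53.4 at day 0. Both were nearly lost from the 8 libraries of day 12. The other guides were not: sg_75657 had 952, 941, 908 and 714 in RUX and 969, 961, 1065 and 996 in DMSO, against 801 at day 0, and sg_75659 had 199, 182, 149 and 170 in RUX and 224, 180, 297 and 336 in DMSO, against 247 at day 0. Because both lost guides started below a signal of 100, restricting the gene to guides of at least 100 at day 0 gave -0.21 in RUX and 0.045 in DMSO, and reads summed over guides, which weight sg_75657 most, gave -0.14 and 0.017 with edgeR, neither past the threshold.

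NBPF9 (chr1:149052186-149103561; median of 17 genome copies) scored -0.91, -0.97, -0.85 and -0.90 in RUX and -0.83, -1.11, -1.11 and -0.89 in DMSO. Its means were -0.91 ± 0.05 in RUX (SD, n = 4; limma adjusted p = 0.0177) and -0.99 ± 0.15 in DMSO (limma adjusted p = 0.00921). Guide sg_72277 had signals of 28.3, 11.1, 14.2 and 12.5 in RUX and 11.6, 4.82, 8.44 and 11.9 in DMSO, against 196 at day 0, while the scores of its other guides lay between -0.53 and -0.31 in RUX and between -0.72 and -0.10 in DMSO. A single guide thus gave most of the score of NBPF9. When the median score of 20 neighbouring genes outside the families was subtracted, NBPF9 scored -0.51 in RUX and -0.64 in DMSO and passed in neither, whereas NBPF20 scored -1.18 and -1.16 and passed in both.

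NBPF10 (median of 64 copies) scored -0.67, -0.69, -1.12 and -1.13 in RUX and -0.78, -0.68, -0.39 and -0.93 in DMSO. It passed in RUX (mean -0.90 ± 0.26, limma adjusted p = 0.0212) but not without RUX replicate 3 (-0.83, adjusted p = 0.0541) or RUX replicate 4 (-0.83, adjusted p = 0.0578), and over all alternatives the adjusted p ran between 0.00879 and 0.818. Its guide sg_75440 fell to 32.3, 25.9, 1.01 and 6.80 in RUX and 4.21, 9.64, 41.3 and 4.57 in DMSO, against 113 at day 0, whereas sg_75442 had 418, 582, 565 and 420 in RUX and 494, 524, 544 and 407 in DMSO, against 368 at day 0. In NBPF15 (median of 15 copies; means -0.89 ± 0.20 in RUX and -0.70 ± 0.36 in DMSO, neither past the threshold) guide sg_67925 had 8.08, 7.41, 2.03 and 3.40 in RUX and 43.2, 15.4, 11.3 and 31.96 in DMSO, against 121 at day 0. NBPF7, annotated in the reference as a pseudogene, was the highest of the family, with -0.09 in RUX and -0.03 in DMSO.

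The NPIP genes, nuclear pore complex interacting proteins, spread over chromosome 16 in apes. Their 10 members had median scores of -0.42 in RUX and -0.43 in DMSO, 4 of 10 lay below -0.5 in each, and the median over their genes was 13.75 genome copies. NPIPA2 (chr16:14742533-14765462) scored -0.97, -1.498, -0.94 and -1.24 in RUX and -1.23, -0.89, -1.15 and -1.24 in DMSO. Its means were -1.16 ± 0.26 (SD, n = 4; limma adjusted p = 0.00380) in RUX and -1.13 ± 0.16 (limma adjusted p = 0.00669) in DMSO. Guide sg_73720 fell to 10.1, 5.56, 13.2 and 1.13 in RUX and 10.5, 26.0, 25.3 and 1.83 in DMSO, against 223 at day 0. Guide sg_73718 fell to 148, 13.9, 56.8 and 65.7 in RUX and 47.4, 72.3, 112 and 124 in DMSO, against 285 at day 0, with a wider spread between libraries. The other guides, sg_73719 and sg_73721, scored 0.08 and -0.05 in RUX and -0.34 and -0.30 in DMSO.

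NPIPB6 (chr16:28342517-28363508; median of 9.5 copies) had 3 guides below -0.5 in each condition and a wide spread between libraries. It scored -1.34, -0.92, -1.36 and -0.76 in RUX (mean -1.09 ± 0.30, limma adjusted p = 0.0418) and -0.90, -1.83, -1.04 and -1.31 in DMSO (mean -1.27 ± 0.41, limma adjusted p = 0.0137). The RUX call was lost without RUX replicate 1 (-1.01, adjusted p = 0.109), RUX replicate 3 (-1.01, adjusted p = 0.107) or DMSO replicate 4 (-1.09, adjusted p = 0.0501), within a range of 0.0136 to 0.393 over all alternatives. NPIPA3 was the highest of the family, with -0.03 in RUX and 0.04 in DMSO. NPIPB5, whose sites had a median of 58 copies, scored -0.13 in RUX and -0.31 in DMSO.

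Golgins are coiled-coil proteins of the Golgi apparatus, and GOLGA6 and GOLGA8 are families of golgin-like genes duplicated on chromosome 15. The 10 GOLGA6 genes had medians of -0.37 in RUX and -0.43 in DMSO, and the 9 GOLGA8 genes -0.28 and -0.32. GOLGA6L1 (chr15:23127066-23136822; median of 8 copies) scored -1.31, -0.96, -0.96 and -1.13 in RUX and -1.14, -0.76, -1.22 and -0.93 in DMSO. Its means were -1.09 ± 0.17 (SD, n = 4; limma adjusted p = 0.00769) in RUX and -1.01 ± 0.21 (limma adjusted p = 0.0180) in DMSO. Guide sg_67491 had signals of 13.1, 36.1, 45.6 and 45.3 in RUX and 83.2, 89.6, 46.9 and 61.2 in DMSO, against 371 at day 0, so that every RUX value lay under every DMSO value. The difference between RUX and DMSO for this guide was -0.68 and did not pass (limma adjusted p = 0.549). Guide sg_67489 of the same gene had 297, 184, 221 and 264 in RUX and 179, 259, 203 and 174 in DMSO, against 166 at day 0, and its signal lay above that of day 0 in each of them.

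GOLGA6L10 (chr15:82339993-82349475; median of 8 copies) differed from these genes in that its guides fell more evenly. It scored -0.88, -0.61, -0.98 and -1.33 in RUX (mean -0.95 ± 0.30, limma adjusted p = 0.0678) and -0.94, -1.38, -1.32 and -1.04 in DMSO (mean -1.17 ± 0.22, limma adjusted p = 0.0148). The scores of its 4 guides were -1.23, -1.05, -1.15 and -0.37 in RUX and -1.26, -1.15, -1.45 and -0.81 in DMSO. It was the only member with all 4 guides below -0.5, in DMSO. At the other end, GOLGA8B (median of 2 copies) scored 0.34, 0.03, 0.22 and 0.24 in RUX and 0.38, 0.18, 0.65 and 0.33 in DMSO. GOLGA6L6, with a median of 8 copies like GOLGA6L1 and GOLGA6L10, scored -0.05 in RUX and -0.06 in DMSO on average.

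TBC1D3 genes, on chromosome 17, carry a TBC domain, a domain that in other proteins acts on Rab GTPases. The 7 copies had the lowest median of the families with over 1 gene, -0.52 in RUX and -0.69 in DMSO. In each condition 4 of 7 genes and 12 of 28 guides (42.9%) lay below -0.5. All 7 had a median of 13 genome copies. TBC1D3C scored -0.77, -0.80, -0.81 and -0.52 in RUX (mean -0.73 ± 0.14) and -1.01, -0.48, -1.21 and -0.74 in DMSO (mean -0.86 ± 0.32, limma adjusted p = 0.0476). The DMSO call was lost when any of RUX replicates 1, 2, 3 and 4 or DMSO replicates 1, 3 and 4 was left out, with scores of -0.90 to -0.74 and adjusted p of 0.0523 to 0.111, and over all alternatives the adjusted p ran between 0.0122 and 0.265. TBC1D3B, with the same number of copies, scored -0.26 in RUX and -0.10 in DMSO. The 3 genes that share only the letters had sites with a median of 1 copy: TBC1D30 scored 0.13 and 0.10, TBC1D31 -0.35 and -0.59, and TBC1D32 -0.18 and -0.40 in RUX and DMSO.

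SPDYE genes, of the Speedy family whose members bind cyclin-dependent kinases, lie mainly on chromosome 7. The 7 genes had medians of -0.36 in RUX and -0.49 in DMSO. SPDYE6 (chr7:102345746-102356444; median of 8 copies) scored -0.49, -0.58, -0.91 and -0.76 in RUX (mean -0.69 ± 0.19, limma adjusted p = 0.00691) and -0.54, -0.47, -0.65 and -0.48 in DMSO (mean -0.54 ± 0.08, limma adjusted p = 0.0662). Its 4 guides began with day 0 signals of 397 to 589 and scored -0.12, -0.57, -0.80 and -1.25 in RUX and 0.42, -0.44, -1.05 and -1.07 in DMSO. With reads summed over guides it was the member that passed with edgeR in RUX among the 7 called by limma. With the 20 neighbouring genes subtracted it scored -0.54 in RUX and did not pass (adjusted p = 0.160, in a range of 0.00205 to 0.160 over its alternatives). SPDYE2 averaged -0.72 ± 0.16 in RUX and -0.86 ± 0.35 in DMSO, and SPDYE4, which lies on chromosome 17 away from the others, -0.11 ± 0.15 and -0.16 ± 0.04.

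WASH1, now named WASHC1, encodes a subunit of the complex that starts actin assembly on endosomes, and copies of it lie near the ends of several chromosomes. The coding sites of the gene (chr9:14475-73865) had a median of 9 copies over 8 chromosomes. It scored -0.68, -1.28, -0.78 and -0.996 in RUX (mean -0.93 ± 0.27, limma adjusted p = 0.0895) and -1.03, -1.32, -0.70 and -1.18 in DMSO (mean -1.06 ± 0.27, limma adjusted p = 0.0447). Guide sg_75586 fell to 35.4, 1.85, 27.4 and 17.0 in RUX and 17.9, 7.71, 43.1 and 3.65 in DMSO, against 101 at day 0, and sg_75587 to 30.3, 78.7, 63.9 and 40.8 in RUX and 42.1, 48.2, 59.1 and 65.7 in DMSO, against 249 at day 0. Guide sg_75585 scored -0.28 in RUX and -0.28 in DMSO. The DMSO call was lost without RUX replicates 1, 3 or 4 or DMSO replicates 1, 2 or 4 (scores of -1.06 to -0.97, adjusted p of 0.0536 to 0.0863) and after subtraction of neighbouring genes (-0.92, adjusted p = 0.225), in a range of 0.0111 to 0.281 over all alternatives.

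None of the remaining families held a gene that passed. USP17L genes, intronless genes for deubiquitinating enzymes in a tandem array, had sites with a median of 25 copies, more than those of TBC1D3, NPIP or NBPF, yet the 25 genes had medians of -0.21 in RUX and -0.16 in DMSO, and 2 genes in RUX and 1 in DMSO lay below -0.5. FAM90A1, with a median of 13 copies, scored 0.18 in RUX and 0.13 in DMSO. The PPIAL4 genes, relatives of cyclophilin A, had medians of -0.14 and -0.37, and the FOXD4 genes, forkhead transcription factors, -0.19 and -0.26. The ANKRD20A genes had medians of -0.29 and -0.28, and the SPATA31 genes, named for spermatogenesis, -0.15 and -0.15. The PRAMEF genes, relatives of the tumour antigen PRAME, had medians of -0.08 and -0.15, the POTE genes, ankyrin-repeat genes known from testis and prostate, -0.06 and -0.00, and the ANKRD36 genes 0.07 and -0.06, in RUX and DMSO.

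A guide with a score below -2 was found in 1 of these families, PPIAL4. In PPIAL4F (mean scores -0.69 ± 0.12 in RUX and -0.49 ± 0.28 in DMSO) guide sg_74811 had 13.1, 9.26, 2.03 and 1.13 in RUX and 10.5, 1.93, 10.3 and 7.30 in DMSO, against 125 at day 0, while the other guides scored 0.39, -0.07 and -0.49 in RUX and 0.37, 0.01 and 0.09 in DMSO. A less strongly reduced guide of ANKRD20A4, sg_74778 (scores -1.21 in RUX and -0.96 in DMSO), had 267, 265, 224 and 241 in RUX and 330, 313, 339 and 291 in DMSO, against 777 at day 0, and sg_74779 had 804, 765, 696 and 798 in RUX and 588, 621, 640 and 543 in DMSO, against 733 at day 0. With limma over all guides, 3 member guides passed in RUX, against 0.0955% of guides: sg_73720 of NPIPA2 (adjusted p = 0.0435), sg_67491 of GOLGA6L1 (adjusted p = 0.0365) and sg_74778 of ANKRD20A4 (adjusted p = 0.0427). None passed in DMSO, against 0.00785% of guides. The RUX count rested on every RUX library and on 1 DMSO library: it was 0 without RUX replicate 1, 2 or 3 or DMSO replicate 1, and 1 without RUX replicate 4.

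POTEE, whose product ends in an actin-like part, had the highest scores: 0.48, 0.18, 0.44 and 0.31 in RUX and 0.31, 0.43, 0.53 and 0.34 in DMSO. Its means of 0.35 ± 0.14 and 0.40 ± 0.10 (SD, n = 4 each) did not pass. Guide sg_73322, with a day 0 signal of 41.3, had 213, 48.1, 176 and 158 in RUX and 135, 252, 129 and 170 in DMSO. Guide sg_73321 of the same gene scored -0.26 in RUX and -0.35 in DMSO. POTEF scored 0.24 and 0.20, PPIAL4G 0.21 and 0.21, and USP17L17 0.16 and 0.22, and none of these passed. POTEG had the lowest mean of both conditions in its family, with -0.49 in RUX and -0.54 in DMSO.

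Guides to the same member gene differed from each other. Guides below -2 were found in RUX in NBPF (4), GOLGA6 (1), NPIP (1) and PPIAL4 (1) and in none of the other families. Over the 133 member genes with 4 guides, the median SD between guides was 0.37 in RUX, against 0.28 for 17992 genes outside the families and 0.26 for olfactory receptors. In DMSO it was 0.37, against 0.29 and 0.26. Among genes scoring below -0.5 this SD was 0.67 for the 23 members and 0.60 for 787 genes outside the families in RUX. In DMSO it was 0.71 and 0.56. The gap between members and other genes was thus smaller among these low genes in RUX and larger in DMSO. At most 2 guides below -0.5 were found for 65.2% of those members, against 61.9% of those other genes, in RUX, and for 68% against 61.5% in DMSO. In RUX, 51 member genes had no guide below -0.5, 44 had 1, 29 had 2, 9 had 3 and none had 4. Among the 23 member genes below -0.5 in RUX, 0 had all 4 guides below -0.5, against 53 of 787 (6.73%) outside the families, and 12 had 2 such guides. In DMSO 1 of 25 had all 4, against 52 of 761 (6.83%). The difference in these shares was not tested.

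Low scores were found among members with many repeated sites, though not in every family with many copies. Copies could be counted for 139 members (97.2%). Under RUX, 0 of 10 members with a median of 1 copy, 0 of 7 with over 1 to 2, and 0 of 35 with over 2 to 5 lay below -0.5. Above that, 10 of 37 (27.0%) with over 5 to 10 copies and 13 of 50 (26.0%) with over 10 did so. Over all genes, members included, the shares in these bins were 4.01%, 8.98%, 12.1%, 23.4% and 20.3%. Of the 79 genes with over 10 copies, 50 were members. Under DMSO the members' counts were 1, 0, 3, 9 and 12, and the shares over all genes 3.88%, 7.78%, 12.8%, 21.1% and 20.3%. These shares moved with the mean over sites in place of the median. With over 5 to 10 copies, 2 of 36 members (5.56%) then lay below -0.5 in RUX and 3 (8.33%) in DMSO. With over 10 it was 21 of 71 (29.6%) and 20 (28.2%). Over all genes these shares were 11.0% and 12.4% with over 5 to 10 copies and 7.76% and 7.42% with over 10.

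Across the 139 genes the Spearman correlation of median copies with the score was -0.32 in RUX and -0.29 in DMSO, given as a description, since copies of a family share sites and all scores share the day 0 library. With the mean over sites in place of the median it was -0.34 and -0.32. Genes outside the families were counted without those named RPL or RPS plus a number. With a median over 10 copies, 2 of 26 such genes (7.69%) lay below -0.5 in RUX and 3 (11.5%) in DMSO. The members' shares in that bin were 26.0% and 24.0%. The ribosomal protein gene RPSA, which that name pattern misses, was in both counts (-0.84 in RUX and -0.80 in DMSO). With over 5 to 10 copies the outside shares were 18.3% (15 of 82) and 15.9%, against 27.0% and 24.3% of the members. With the mean over sites these outside shares were 8.14% and 9.83%, against 5.56% and 8.33% of the members. With over 10 by the mean they were 6.41% and 6.19%, against 29.6% and 28.2%. With a median of 1 copy the outside shares were 3.95% and 3.81%, against 0% and 10% of the members. The 10% was 1 of 10 genes, TBC1D31 (-0.59 in DMSO), which shares only the letters with TBC1D3. The copies are those of the reference, and a gene's median does not say how many sites its own 4 guides cut. The part of cutting at many sites, of the copy number in HEL cells or of the gene products in these scores was not tested.

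No member gene passed between RUX and DMSO in the test across all genes: with limma the count was 0 of 143 in either direction (all genes: 0.0419% lower and 0% higher), and edgeR and DESeq2 on summed reads also gave 0. At an unadjusted p under 0.05, 2 members were lower and 8 higher under RUX, against 5.66% and 3.43% of all genes. The median difference over the members was 0.02, against -0.01 over all genes. In 4 members every RUX library lay under every DMSO library, against 2.55% of all genes, and in 6 every RUX library lay above, against 2.1%. Counts of this size are not read as a result about the members.

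The largest difference on the high side was that of PPIAL4C, which scored -0.25, -0.13, -0.12 and -0.03 in RUX and -0.56, -0.43, -0.83 and -0.32 in DMSO. The groups did not overlap, and the difference was 0.40 ± 0.12 (SE, n = 4 each; limma adjusted p = 0.287), with an exact two-sided permutation p of 0.0286, the smallest that 4 against 4 libraries allow, and 0.615 after adjustment. USP17L26 (0.37 ± 0.13), FOXD4L4 (0.31 ± 0.13) and, on the low side, PRAMEF10 (-0.28 ± 0.09) also had groups that did not overlap, with the same exact permutation p. The lowest difference was that of USP17L25, with -0.42, -0.01, -0.80 and -0.94 in RUX and -0.36, -0.06, 0.27 and -0.10 in DMSO. Its groups overlapped, and the difference of -0.48 ± 0.16 did not pass (limma adjusted p = 0.369). Of 561 member guides, 0 passed between RUX and DMSO (all guides: 0.00916% lower and 0% higher), 13 lay wholly lower in RUX, against 2.52% of all guides, and 9 wholly higher, against 2.1%.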

How the data were processed

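Guide reads were counted by the authors with MAGeCK and scaled before they were deposited, so the unit of the table is a signal per guide. The submitters' processing notes name hg38 and featureCounts 2.0.1 without a role. In all 9 libraries 100% of the deposited values were whole reads times 1 factor (within 0.001), and the recovered reads were used for depth and for the count tools. The 0 columns of other samples needed no exclusion. The authors' beta scores with copy number normalization were not used here.

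Each library was scaled by its median ratio to day 0 over the non-targeting guides with a day 0 signal of at least 30. Scores were fitted in R 4.3.3 with limma 3.58.1, with 1 mean for each of 3 conditions, empirical Bayes with a trend over the mean log signal, and Benjamini-Hochberg adjustment over 19112 genes with at least 2 guides, or over 76424 guides. Day 0 has 1 library, whose variance was taken from the day 12 libraries. Errors of gene scores cover the spread between libraries and not that between guides, and p-values measure only the spread between these libraries, which may be technical. PCR reads without molecular identifiers are not independent molecules. Alternatives were scalings, pseudocounts, filters, guide medians, neighbour subtraction, libraries left out, a replicate block, and edgeR 4.0.16 and DESeq2 1.42.0 on summed reads. The limma step was tested on simulated data.

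Genes were placed on hg38 with GENCODE annotation: 138 by symbol and 2 by an older symbol, while ANKRD20A2, ANKRD20A3 and ANKRD20A4 were not placed. The genes named are the 12 lowest members, those that passed, the lowest and highest of each family, the 5 highest, the 5 largest differences between RUX and DMSO in each direction and the letters-only matches; NPIPB5, and guides that did not pass of genes beyond the 5 lowest, were singled out after their values were seen. Members and lists were chosen with earlier results of these data known. A further reference site is not reported here.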

Additional observations from a re-analysis of the deposited data

Results flagged for a closer look

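In 134 groups of 4 libraries, 9 held an outlying library, where chance would give about 6.7. Its gap to the nearest of the others exceeded Dixon's 95% critical value. The groups were, per condition, the scores of the named genes, the medians of families with over 1 gene, and library measures. These measures were read totals, the members' share of reads, the SD of non-targeting guides and the member guides read 0 times. None of the library measures was flagged. Under RUX, replicate 4 of TBC1D3C scored -0.52, against -0.81 to -0.77 in the others, replicate 1 of TBC1D3F -0.31, against -0.67 to -0.61, and replicate 1 of ANKRD20A1 -0.18, against -0.35 to -0.32. The median over the GOLGA6 genes was -0.42 in RUX replicate 1, against -0.31 to -0.30. Under DMSO, replicate 3 stood apart for ANKRD20A1 (-0.66, against -0.30 to -0.25), TBC1D3K (-0.46, against -0.19 to -0.16) and PPIAL4G (0.33, against 0.15 to 0.18). Replicate 4 stood apart for FOXD4L1 (-0.73, against -0.46 to -0.42) and replicate 2 for TBC1D31 (-0.39, against -0.67 to -0.65). DMSO replicate 3, which holds 3 of the 9, was also the library with the widest spread of non-targeting guides.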

How the results depend on the processing

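The members' median lay below that of all genes in both conditions under every scaling, filter, pseudocount, left-out library and tool tried, but the counts moved. Members below -0.5 in RUX, 23, became 13 when scaled over all guides, to the library total or with values as deposited, 15 when scaled over olfactory receptor guides, 13 with a pseudocount of 20, 15 with neighbouring genes subtracted, 8 with edgeR and 9 with DESeq2. All genes below -0.5 then numbered 607, 648, 616, 676, 603, 520, 352 and 363, against 891. In DMSO the members' 25 became 9 with edgeR and 9 with DESeq2 (all genes 349 and 355, against 855). Below -1 lay 4 members in RUX and 6 in DMSO, against 0.675% and 0.555% of all genes. Members that passed in RUX, 7, became 4 under each of the scalings over all guides, to the total and as deposited, 3 with the median over guides, 3 with neighbours subtracted, 2 with edgeR, 3 with DESeq2 and 3 with the trend over the mean score. In DMSO the 8 became 5 when scaled over all guides, 5 with a pseudocount of 1, 3 with a day 0 signal of at least 100, 0 with the median over guides, 2 with neighbours subtracted, 1 with edgeR, 4 with DESeq2 and 4 with the trend over the mean score. Over all genes these settings called, in the same order, 147, 154, 151, 78, 117, 111, 136 and 102 in RUX, against 307, and 131, 180, 156, 53, 92, 73, 116 and 88 in DMSO, against 226. NBPF20 in DMSO turned to 0.045 with a day 0 signal of at least 100, 0.017 with edgeR and 0.013 with DESeq2, where its lost guides carry no or little weight. Member guides that passed in RUX, 3, became 0 under the 4 other scalings and a pseudocount of 1, and 7 with a pseudocount of 20, with no day 0 filter and with no variance trend. In DMSO the 0 became 5, 4 and 5 with these last settings. With libraries left out in turn, members below -0.5 numbered 20 to 25 in RUX and 25 to 28 in DMSO, members that passed 5 to 10 and 6 to 11 (all genes 236 to 394 and 171 to 263), and member guides that passed 0 to 3 in RUX and 0 in DMSO. The trend over the mean score and the counts without TBC1D30, TBC1D31 and TBC1D32 (23 in RUX and 24 in DMSO) were chosen after seeing the data. With the replicate number as a block, 0 member genes and 0 member guides passed between RUX and DMSO, as without it. Libraries with the same number correlated by -0.13 to 0.03 and others by -0.11 to 0.13, and 0 of 4 RUX libraries correlated best with their own number, so the numbers were not taken to pair the samples. No paired analysis was possible because the day 0 library has no replicate number for the comparisons with day 0. Over the single named genes and other values, 2975 were counted as the same, 177 moved, 100 no longer passed, 27 newly passed and 3 turned. For a gene that passed, the same meant that direction and call were kept, and only such genes could be counted as turned. For other genes and the members' medians it meant a shift under the SD between libraries, whatever the sign. The copy correlations were counted as the same without a rule. Depth limits the guides with low day 0 signals: a guide at 53.4 that is read 0 times in all 4 DMSO libraries scores -2.46, set by the pseudocount.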

Other observations

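Genes outside the families with a median over 10 copies were chosen after their values were seen, and are given as values. DUX4, a transcription factor gene that lies in a tandem array on chromosome 4 and has a median of 24 copies, scored -1.38 ± 0.15 in RUX and -1.42 ± 0.04 in DMSO (SD, n = 4 each; limma adjusted p = 0.00473 and 0.00390). Among the CT47A genes, a tandem array of cancer-testis genes on chromosome X with a median of 12 copies, CT47A5 scored -0.42 ± 0.14 in RUX and -0.65 ± 0.08 in DMSO (limma adjusted p = 0.198 and 0.0123), while CT47A1, in the same array, scored 0.19 ± 0.09 and 0.09 ± 0.29. Of the GAGE genes, also on chromosome X, with a median of 11 copies, GAGE12C scored -0.30 ± 0.07 in RUX and -0.25 ± 0.02 in DMSO and GAGE12H 0.15 ± 0.10 and 0.07 ± 0.07. C9orf85, with a median of 359 copies, scored -0.01 ± 0.14 and 0.05 ± 0.06.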
